A study of Arabidopsis thaliana with 18 samples.

Results

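The count tables joined some overlapping annotated genes into 1 locus and gave the reads of all of them to it. Such a joined locus was recognised by an identifier in which gene names are linked by a plus sign. Of the 32436 loci counted, 227 were joined. Of these, 214 held 2 genes, 11 held 3 and 2 held 4, which makes 469 genes in all. The deposited comparison table held 32209 single-gene loci and 0 joined loci, so the values below come from the counts of each library.

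The libraries were made from whole Arabidopsis thaliana seedlings and sequenced with PacBio Iso-Seq, whose long reads can span a transcript from end to end. The 6 genotypes were Col-0 as the wild type, the single mutants prl1-2, xct-1 and xct-2, xct-2 with an XCT::XCT transgene, and xct-1 with a transgene labelled XCT::SpXAP5, each with 3 biological replicates. The transgenic lines are called XCT::XCT and XCT::SpXAP5 from here on. All seedlings had the same treatment, namely 3 days of stratification followed by growth at 22 °C in constant light of 55 µmol m-2 s-1. Samples of about 60 mg, collected every 2 h for 24 h at day 11, were combined, and another label gives the age as 10 days.

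XCT is a nuclear protein known for a role in the circadian clock and in splicing, and PRL1 is a WD40 protein of the complex that joins the spliceosome when it becomes active. The spliceosome removes introns, and each removed intron leaves a junction between the flanking exons in the transcript. Neighbouring genes on a chromosome can overlap at their ends on opposite strands or lie one inside the other. A short reading frame upstream of a main coding sequence can also carry a gene identifier of its own. At a joined locus the reads of the genes cannot be told apart by count, so junction usage can move with splicing as well as with the balance of the genes.

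Depth ran from 459150 to 1046273 reads per library, and joined loci took 1.35 to 1.52% of the reads, with a median of 1.45%. The targeted genes were checked first. XCT had 8, 16 and 2 reads in Col-0, 4, 8 and 4 in xct-2, 11, 68 and 10 in xct-1, but 654, 284 and 334 in the XCT::XCT line, so its counts do not mark either mutant. PRL1 had 33, 26 and 10 reads in Col-0 and 0 in each prl1-2 library. Summed levels of 3 green shoot markers ran from 3142 to 10714 CPM (counts scaled to library size), and flower markers were at 0. Root markers ran from 18.9 to 46.8 CPM, with prl1-2 at 41.2 to 46.8, XCT::XCT at 19.6 to 41.8 and Col-0 at 21.5 to 39.7. Of these, SHV2 had a lower mean in prl1-2 (2.88 CPM) than in Col-0 (4.55 CPM), and the other root markers a higher one. Seed storage genes reached 22.7 CPM in XCT::XCT and 1.06 CPM in prl1-2 and were at 0 in the other genotypes, and their part in the results was not tested.

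The joined loci were a mixed group. Of the 469 genes, 385 were found in the RefSeq gene table, where 339 are protein-coding, 13 are pseudogenes, 11 encode tRNAs and 8 encode miRNAs. The remaining 84 identifiers had no entry there, and 69 of them lie on nuclear chromosomes. In 118 loci all genes were protein-coding, and these loci held 50% of the joined reads. In 63 nuclear loci at least 1 identifier had no RefSeq entry, and they held 39.9%. Another 39 nuclear loci held a gene of another RefSeq type with 3.59% of the reads, and 7 loci of the plastid and mitochondrial genomes held 6.56%.

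Reads were spread unevenly over these loci. Summed over the 18 libraries, a joined locus had a median of 201 reads, with quartiles of 43 and 695.5, and 16 loci had none. The 10 loci with most reads held 44.8% of the 216941 joined reads. They included the loci of OVA2, an isoleucyl-tRNA synthetase, MYA2, a class XI myosin that moves organelles along actin, SAMDC, an S-adenosylmethionine decarboxylase of polyamine synthesis, and RPP8, an immune receptor against downy mildew. The loci of 4 genes were AT5G09460 (6724 reads) and SAC51 (2701 reads). Of the 11 loci of 3 genes, those with most reads were MIR834 (2537 reads), AT1G29950 (1263 reads) and AT4G33480 with AT4G33490 and RPD1 (662 reads). None of the 24 genes of a splicing and clock list that includes XCT, PRL1, CCA1 and TOC1 lay in a joined locus.

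The strands of joined genes are not given in the files. Among single-gene loci with coordinates, 1855 pairs overlapped on opposite strands and 45 on the same strand. These pairs were counted apart, so an overlap of spans did not always lead to joining. Exon bins, the non-overlapping pieces into which the exons of a locus are divided, gave another view. For each locus the best covered bin was found and its reads were set against the reads of the locus. A value of 100% means that every read of the locus crossed that bin.

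At most joined loci nearly all reads shared a bin, as they do at single-gene loci. Among 140 joined loci with at least 100 reads and at least 2 bins, the median of the best bin was 99.7%, against 100% among 9639 single-gene loci. It was below 90% at 21 of the 140 joined loci (15%) and at 24 of the 9639 single-gene loci (0.249%). Of those 21 loci, 17 were among the 77 loci of protein-coding genes, 3 among 15 loci with another RefSeq type and 1 among 45 loci with an identifier absent from RefSeq.

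The most evenly divided loci were those in which no bin drew much more than a bare majority of reads. The lowest values were 56.2% of 331 reads at UGT73B5 and UGT73B4, a pair of adjacent glucosyltransferases of similar sequence, and 56.3% of 144 reads at PRA1.A3 with AT3G11402. AT4G36190 with AT4G36195 followed at 57.7% of 1258 reads. DCL2, a Dicer-like enzyme that cuts double-stranded RNA into small RNAs, reached 68.1% of 1820 reads in its locus with AT3G03305. In all, 7 loci were below 70%, 14 between 70 and 90%, 26 between 90 and 99%, and 93 at 99% or above. Reads may be split between gene copies of similar sequence at the UGT73B and RPP8 loci, which was not tested, so their values are less certain.

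**Figure D1:**
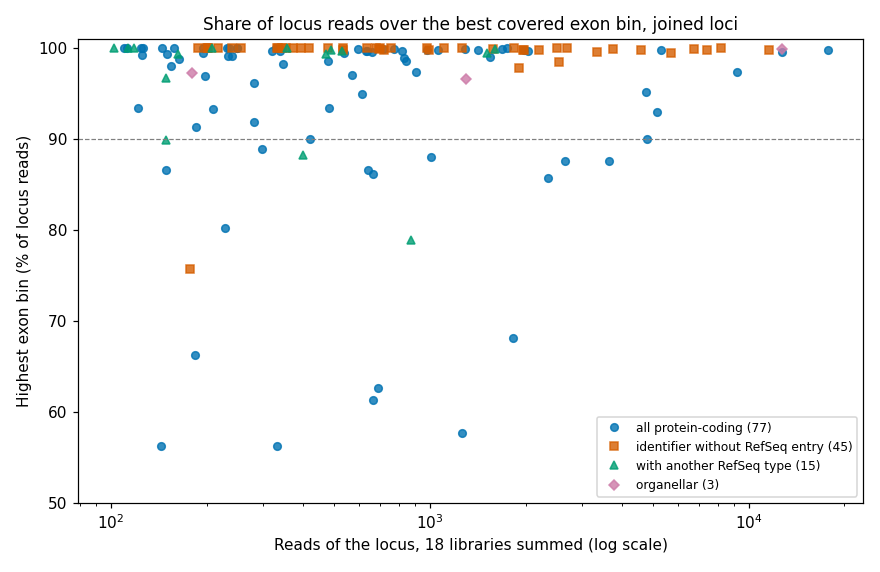
Each point is a joined locus with at least 100 reads and at least 2 exon bins, with reads summed over the 18 libraries on a log axis and the reads over its best covered bin as a percent of locus reads on the vertical axis. Colours and shapes give the class, with the number of loci in brackets, and the dashed line stands at 90%, below which 21 of 140 loci lie, 17 of them with protein-coding genes only.

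The level of a joined locus was compared between genotypes on its read count. Of the 227 loci, 146 had enough reads for the test. No joined locus passed an adjusted p of 0.05 with edgeR in any of the 6 comparisons, where the share called over all 10810 loci tested was itself 0.0555% for xct-2, 0% for xct-1, 0.241% for prl1-2 and 0.0185% for XCT::XCT, each against Col-0. It was 0.037% for XCT::XCT against xct-2 and 0% for XCT::SpXAP5 against xct-1. At an unadjusted p under 0.05 edgeR counted 2, 2, 8, 1, 7 and 8 joined loci in that order. These are 1.37, 1.37, 5.48, 0.685, 4.79 and 5.48% of the joined loci tested, against 4.63, 1.42, 5.94, 1.98, 5.12 and 8.46% of all loci tested. At an adjusted p under 0.05 DESeq2 called 0 joined loci in each. In whole seedlings fewer cells of a type and less RNA per cell cannot be told apart.

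Within a genotype the largest loci varied widely. The locus of AT2G32235 and AT2G32240, the one with most reads, stood at 563, 458 and 2682 CPM in Col-0, at 1215, 277 and 1851 CPM in xct-1 and at 1515, 317 and 2042 CPM in xct-2. MYA2 with AT5G43910 followed the same order with 302, 169 and 1377 CPM in Col-0. SAMDC with AT3G02468 went the other way, at 752, 722 and 343 CPM in Col-0. Junction reads per gene read in the same libraries were 8.81, 7.93 and 11.5 for Col-0, 10.1, 7.05 and 10.8 for xct-1 and 10.1, 7.53 and 10.8 for xct-2. Its part in these levels was not tested.

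**Figure D2:**
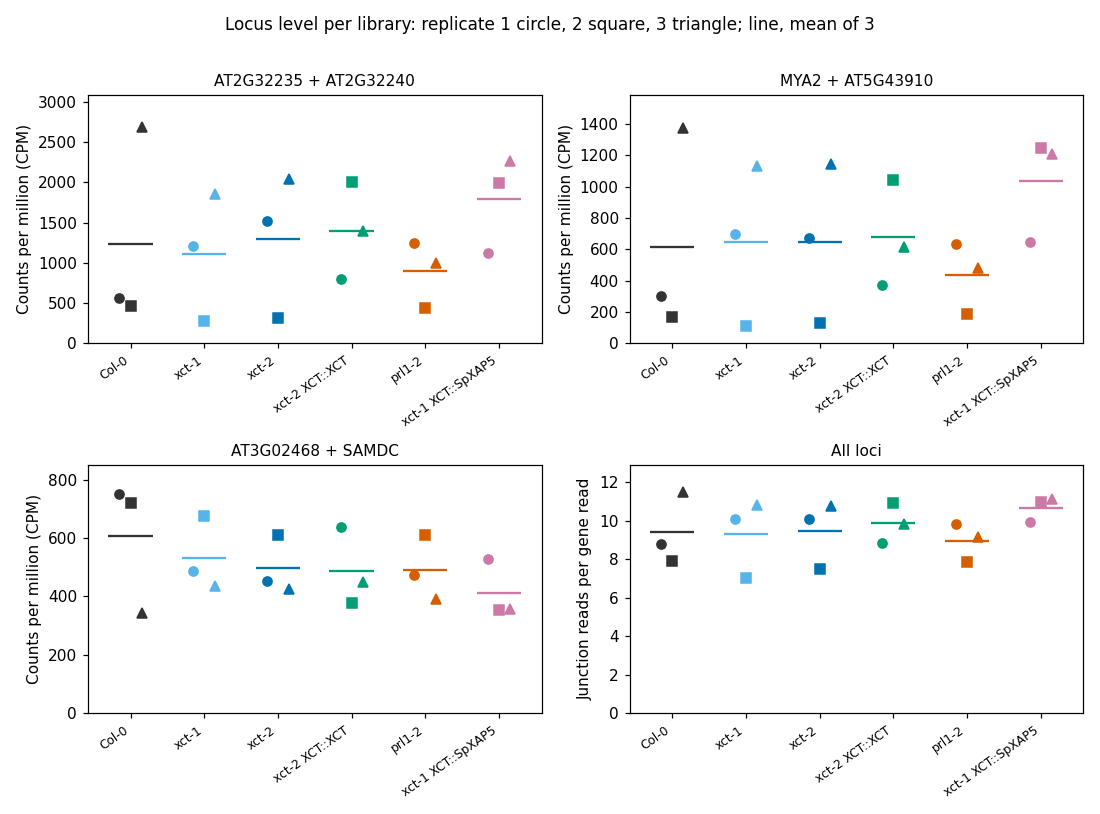
The first 3 panels show CPM in each library for the loci of AT2G32240, MYA2 and SAMDC, and the fourth shows junction reads per gene read over all loci. Genotypes stand along the horizontal axis, the shapes give replicates 1 to 3 and a line marks the mean; in Col-0 the AT2G32240 locus ran from 458 to 2682 CPM while the SAMDC locus ran from 343 to 752 CPM.

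The loci nearest to a change are given as values. AT3G18530 with AT3G18535 stood at 22.6, 20.4 and 19.9 CPM in Col-0 and at 13.01, 4.25 and 5.00 CPM in prl1-2. The groups did not overlap, and the log2 difference was -1.61 (SE 0.52, edgeR adjusted p = 0.452). In xct-1 it stood at 6.31, 14.2 and 6.35 CPM. DTX35, a transporter of the MATE family, with AT4G25635 stood at 76.9, 64.7 and 56.4 CPM in Col-0, 95.4, 97.8 and 265 CPM in prl1-2 (adjusted p = 0.540) and 146, 68.8 and 191 CPM in XCT::XCT. Its prl1-2 libraries lay above those of Col-0 and 1 of them far above the others. NVL with AT1G08310 stood at 10.9, 7.94 and 19.9 CPM in Col-0 and 2.169, 3.19 and 3.75 CPM in prl1-2 (adjusted p = 0.554). In reads, AT3G18530 with AT3G18535 had 25, 18 and 12 in Col-0 and 6, 4 and 4 in prl1-2. The NVL locus had fewer still in each prl1-2 library.

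For the XCT mutants, AT4G28230 with AT4G28240 had 4.52, 7.94 and 6.63 CPM in Col-0. It had 17.4, 16.4 and 14.1 CPM in xct-2 (adjusted p = 0.903), 12.6, 14.2 and 15.9 CPM in xct-1 and 14.8, 11.7 and 11.8 CPM in XCT::XCT. All libraries of these 3 genotypes were above each Col-0 library. AT5G33365 with AT5G33370 had 3.62, 13.6 and 6.63 CPM in Col-0, 0, 2.47 and 0 CPM in xct-2 and 8.72, 3.89 and 24.5 CPM in XCT::XCT (adjusted p = 1 and 0.743). AT5G02680 with AT5G02690 had 7.461, 7.397 and 11.6 CPM in xct-2 and 17.4, 18.2 and 26.5 CPM in XCT::XCT, without overlap (adjusted p = 0.672). UGT73B5 with UGT73B4 had 18.9, 23.4 and 17.5 CPM in xct-1 and 15.1, 8.46 and 8.11 CPM in XCT::SpXAP5, also without overlap (adjusted p = 0.578). In reads, AT5G33365 with AT5G33370 had 4, 12 and 4 in Col-0, 0, 3 and 0 in xct-2 and 10, 3 and 25 in XCT::XCT. Other values at such CPM rest on few reads as well.

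When each library's ratio of junction reads to gene reads was added to the model, a choice made after the data were seen, 1 joined locus was called in xct-2, 8 in prl1-2 and 5 in XCT::XCT against xct-2. That is 0.685, 5.48 and 3.42% of the joined loci tested, against 4.32, 6.51 and 4.69% of all loci tested in the same model. None was called in xct-1 (0.0833% over all) or XCT::XCT (0.685%) against Col-0, or in XCT::SpXAP5 against xct-1 (0.00925%), and at an unadjusted p under 0.05 there were 10, 6 and 4 joined loci of 146, and 823, 637 and 505 of all 10810 loci. The xct-2 locus was HB-1, a homeodomain-leucine zipper factor, with AT3G01472 (log2 difference -0.83, adjusted p = 0.036). In prl1-2, 4 were higher and 4 lower, among them AT3G18530 with AT3G18535 (-1.74, adjusted p = 0.018) and DTX35 (1.22, adjusted p = 0.017). XPL1, a phosphoethanolamine methyltransferase of choline synthesis, was lower with AT3G17998 (-0.95, adjusted p = 0.021). The locus of XIH, another class XI myosin, changed sign between the models, from -0.20 to 0.54. Against xct-2, the XCT::XCT line was higher at the loci of PMEAMT, a methyltransferase related to XPL1 (1.01), GAUT10 (0.81), OASB, a cysteine synthase (0.83), WNK4 (0.70) and AT5G33365 with AT5G33370 (3.90).

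Splicing was measured as junction usage, the percent of the reads of a locus that cross a given junction. The joined loci had 1817 annotated junctions and 54 unannotated ones, which lay in 27 loci. With at least 20 reads both on and off the junction, 1071 annotated and 53 unannotated junctions in 138 loci were tested. Differences are given as log2 odds ratios, and p-values were adjusted over all 51714 junctions of all loci. A junction is called when its adjusted p from edgeR is under 0.05. Junctions and bins carry the number they have within the locus, and the files do not give the gene of the locus to which each belongs. A junction or bin written as of a named gene is one of the joined locus that holds this gene. It may belong to another gene of that locus. Over level, junctions and bins together, 67 of the 227 loci had nothing that could be tested.

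In xct-2, transcripts of 13 joined loci changed in junction usage against Col-0. Of 1124 junctions, 17 were called, 8 used more and 9 used less. That is 1.51%, against 2.46% over all junctions tested, where 1.01% were used more and 1.45% less. The median log2 odds ratio was -0.04 at joined loci and -0.13 over all junctions. All 5 unannotated junctions called were used more, and of 12 annotated ones 3 were used more and 9 less. A junction at 0 in Col-0 can pass the read minimum only through other genotypes, and can then only be used more against Col-0. This holds for J047, N059, N051 and N062 below, whose direction was therefore fixed. In xct-1, 9 junctions in 7 loci were called, 7 used more and 2 less, which is 0.801% against 1.06% over all (0.725% more, 0.336% less).

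The largest gain in usage lay in the locus of SECA2, an ATPase that drives protein transport in chloroplasts, with AT1G21651. Junction J047, an annotated one, was crossed by 0 of 465 locus reads in the 3 Col-0 libraries. It was used by 35.4, 30.8 and 33.9% of the reads in xct-2 (33.4% ± 2.38, SD, n = 3) and by 31.7, 26.1 and 25.1% in xct-1 (27.6% ± 3.54). Every library of both mutants was far above Col-0. Over the pooled reads, usage in xct-2 was at least 52.4-fold higher (edgeR adjusted p = 2.0e-08) and in xct-1 at least 42.4-fold (adjusted p = 2.2e-07), taking 3 reads over the Col-0 group as the limit that a count of 0 allows.

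The next junction in number, J048, moved the other way at this locus. It was used by 75, 79.4 and 84.8% in Col-0, 54.5, 50.6 and 56.7% in xct-2 and 47.8, 48.6 and 62.7% in xct-1. Neither mutant overlapped with Col-0, and the log2 odds ratios were -1.78 (SE 0.38, adjusted p = 0.0072) and -1.82 (SE 0.39, adjusted p = 0.013). J048 was paired with J047 as the annotated junction of the locus that fell most from Col-0 to xct-2. The sum and shares of the pair are therefore not a separate test. The sum of J047 and J048 was 81.1% of the pooled reads in Col-0, 82.5% in xct-1 and 88.4% in xct-2. Within that sum J047 took 38.2% ± 1.07 in xct-2 and 34.5% ± 5.65 in xct-1. Exon bin E006 of the locus stood at 75, 81.4 and 86.1% in Col-0, 54.9, 51.9 and 57.7% in xct-2 and 50.3, 49.5 and 63.5% in xct-1, without overlap (adjusted p = 0.671 in xct-2 and 1 in xct-1).

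The read coverage of this locus fell into separate levels. Bin E001 was in 81.4% ± 5.54 of the reads in Col-0 and 88.2% ± 5.36 in xct-2, and bin E036 was in 15.3% ± 3.33 and 9.89% ± 4.27. These bins stand for the stretches before and after a step in coverage that was present in each genotype. Neither bin passed the test (edgeR adjusted p = 1 for both in xct-2 and xct-1).

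At the DCL2 locus the junction gained was unannotated. N059 was at 0 in the 3 Col-0 libraries, at 39.5, 20.3 and 33.7% in xct-2 and at 19.8, 10.4 and 26.1% in xct-1. Both mutants lay wholly above Col-0, by at least 33.9-fold (adjusted p = 6.8e-06) and at least 20.6-fold (adjusted p = 0.00018). Annotated junction J042 stood at 52.3, 42.1 and 78.3% in Col-0 and 25, 15.6 and 39.4% in xct-2, a difference that was not called. J042 was chosen as the annotated junction of the locus that fell most from Col-0 to xct-2, so its fall is no separate result. Of the reads on either N059 or J042, N059 took 54.6% ± 7.78 in xct-2 and 35.3% ± 2.98 in xct-1.

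Bins at either end of this locus varied between libraries of a genotype. Bin E010 was in 52.3, 47.4 and 81.9% of the Col-0 reads and bin E027 in 45.9, 50.9 and 18.1%. Libraries high in one were low in the other, and xct-2 spread as widely, with 66.9, 39.1 and 79.8% at E010. Neither bin passed the test between xct-2 and Col-0 (adjusted p = 1). The locus of BON1, a copine that restrains defence responses, with AT5G61910 also stepped in coverage, with 40, 40.3 and 65.1% of Col-0 reads at bin E010 and 85.8, 83.6 and 91.4% at E024.

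**Figure D3:**
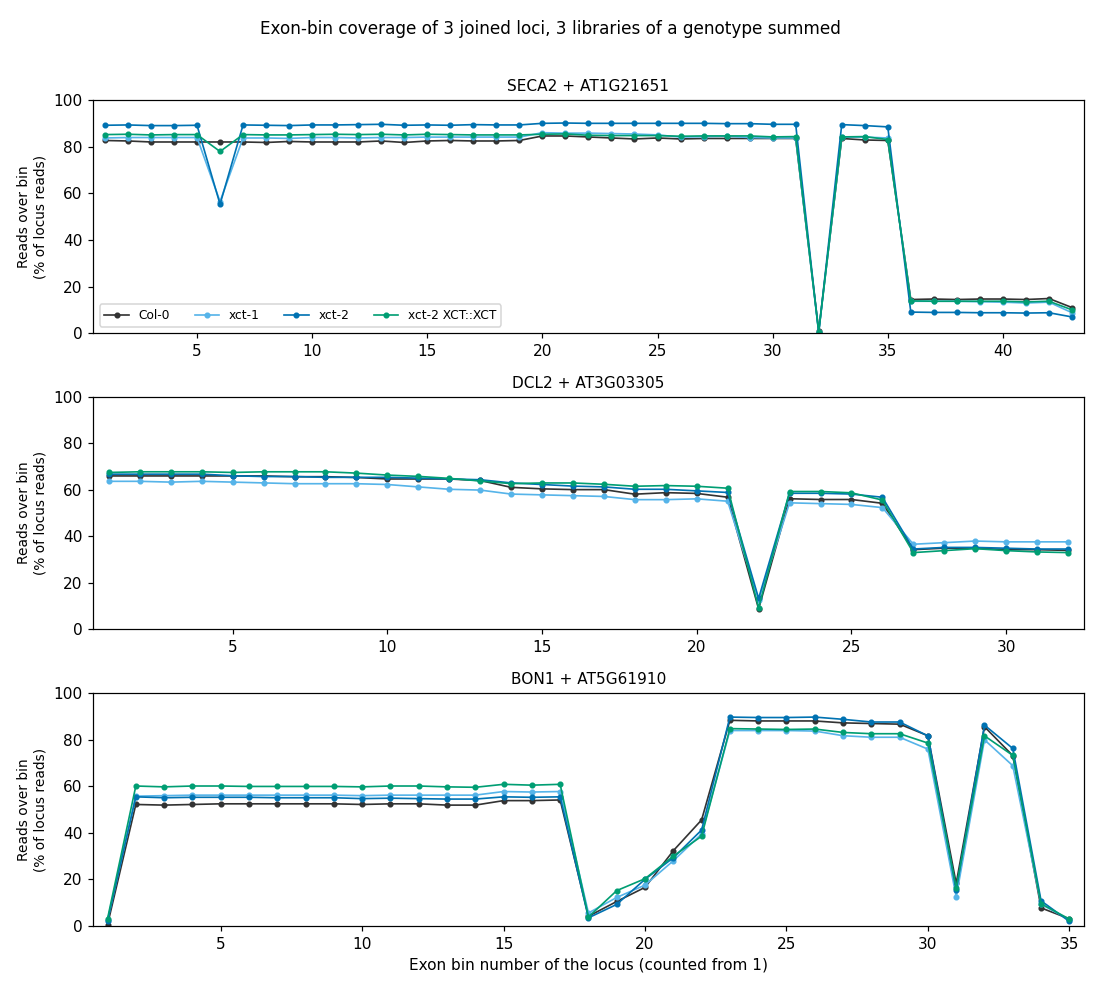
For the SECA2, DCL2 and BON1 loci the percent of locus reads over each exon bin is drawn along the bin number, with the 3 libraries of a genotype summed, for Col-0, xct-1, xct-2 and XCT::XCT. Coverage of the SECA2 locus stepped down near bin E036, to 15.3% in Col-0 and 9.89% in xct-2 as means of 3 libraries, and bin E006 dipped to a mean of 54.8% in xct-2 against 80.8% in Col-0.

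Unannotated junctions absent from Col-0 were also found at the BON1 and OVA2 loci. N062 of BON1 was at 0 in Col-0, at 14.2, 9.64 and 12% in xct-2 and at 7.65, 2.35 and 10.4% in xct-1. In xct-2 it was at least 15.1-fold higher (adjusted p = 0.00065) and in xct-1 at least 9.39-fold (adjusted p = 0.0095). N051 of OVA2 with AT5G49040 was at 0 in Col-0, 3.70, 2.48 and 4.78% in xct-2 and 2.13, 3.61 and 3.24% in xct-1. The mutants did not overlap with Col-0 at either locus, and N051 was at least 24.4-fold (adjusted p = 4.9e-06) and at least 17.6-fold higher (adjusted p = 3.9e-05).

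Other unannotated junctions were already in use in Col-0. At the locus of MIR834, a microRNA gene, with AT5G08220 and AT5G08230, N038 stood at 3.42, 3.03 and 2.39% in Col-0. It stood at 27.9, 23.2 and 22.6% in xct-2 (log2 odds ratio 3.43, SE 0.48, adjusted p = 4.5e-05) and 12.9, 9.30 and 11.6% in xct-1 (2.13, SE 0.51, adjusted p = 0.037). The 3 groups did not overlap, with xct-1 between the others. Annotated junction J028 of this locus fell from 89.2% ± 6.81 to 68.7% ± 8.35 in xct-2 (-2.21, SE 0.49, adjusted p = 0.0097) and was 85.1% ± 1.19 in xct-1. N025 at AT1G33050 with AT1G33055 stood at 1.40, 2.67 and 0.680% in Col-0, 10.8, 15 and 14.8% in xct-2 (3.37, SE 0.68, adjusted p = 0.0033) and 7.04, 16.8 and 7.75% in xct-1 (2.90, SE 0.69, adjusted p = 0.035).

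At the RPP8 locus with AT5G43480 both junctions concerned were annotated, and one rose while the other fell. J011 stood at 42.4, 31.4 and 42.5% in Col-0, 71.2, 69.1 and 66.5% in xct-2 and 62.6, 57.8 and 60.9% in xct-1. J012 stood at 53.0, 63.9 and 56.6% in Col-0, 24.6, 23.6 and 31.0% in xct-2 and 32.2, 35.7 and 35% in xct-1. The more used junction was J012 in Col-0 and J011 in both mutants, and no mutant library overlapped with Col-0. In xct-2 the log2 odds ratios were 1.81 (SE 0.31, adjusted p = 0.00056) and -1.93 (SE 0.31, adjusted p = 0.00027). In xct-1 they were 1.27 (SE 0.31, adjusted p = 0.040) and -1.40 (SE 0.31, adjusted p = 0.019). Bin E003 of the locus stood at 54.8, 64.9 and 56.9% in Col-0 and 25.7, 25.1 and 31.9% in xct-2 (-1.92, SE 0.41, adjusted p = 0.172).

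At other loci 1 annotated junction fell in xct-2 and no other junction of the locus was called. At the locus of ETR1, an ethylene receptor, with AT1G66345, J014 stood at 85.5, 92.3 and 90.5% in Col-0, 37.7, 49.0 and 61.5% in xct-2 and 89.1, 85.7 and 83.3% in xct-1. The xct-2 libraries lay below all others (log2 odds ratio -3.07, SE 0.51, adjusted p = 0.00043). No unannotated junction was counted there, and of 143 pooled xct-2 reads 126 crossed the preceding junction J013, 69 crossed J014 and 123 crossed J015. J020 of Tic20-I, a protein channel of the inner chloroplast envelope, with AT1G04945 stood at 82.6, 92.3 and 71.4% in Col-0, 45.0, 47.8 and 20.0% in xct-2 and 66.7, 68.3 and 50% in xct-1 (xct-2 -3.23, SE 0.66, adjusted p = 0.0039).

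Leaving out a library or changing a setting removed some calls, mostly in xct-1. J047 of SECA2, N059 of DCL2 and N051 of OVA2 were called in both mutants in each of 13 alternatives. N038 of the MIR834 locus and J011 of the RPP8 locus in xct-1 were called in 4 and 5 of the 13. In xct-1, N025 of AT1G33050 was called in 8 and not with DESeq2, and J048 of SECA2, N062 of BON1 and J012 of RPP8 were called in 9 each. In xct-2, J020 of Tic20-I was called in 11 of the 13, and not with the 6 libraries alone or without Col-0 replicate 2 (adjusted p up to 0.107). The number of xct-1 calls fell from 9 to 5 without Col-0 replicate 1 or replicate 3, and to 3 when only the 6 libraries compared were fitted, where xct-2 had 10.

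**Figure D4:**
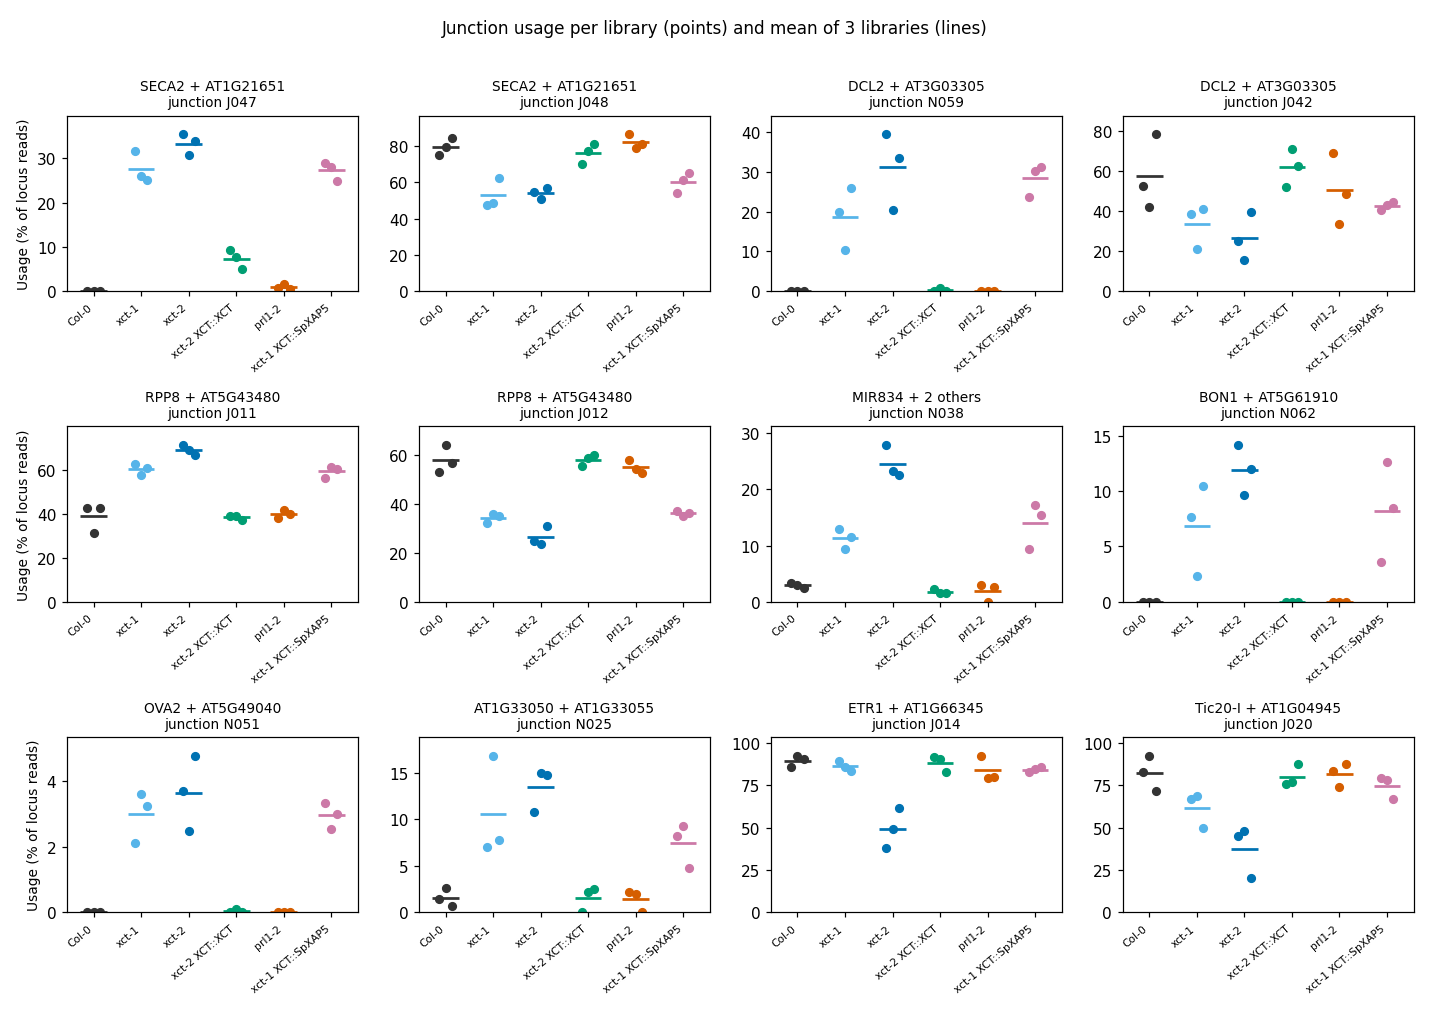
Usage of 12 junctions of joined loci is shown as a percent of locus reads in each of the 18 libraries (points) with the mean of 3 (lines), 1 panel a junction with its own axis from 0. J047 of SECA2 is at 0 in Col-0, near 33.4% in xct-2 and 7.35% in XCT::XCT, while J014 of ETR1 is low in xct-2 only, at 49.4% against 86.0% in xct-1.

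The alleles xct-2 and xct-1 differed at 1 of the 1124 junctions (0.089%, against 0.0928% over all junctions tested, 0.0348% used less and 0.058% more), J014 of ETR1. Its mean usage of 49.4% ± 11.9 in xct-2 lay below that of 86.0% ± 2.88 in xct-1, with a log2 odds ratio of -2.69 (SE 0.49, adjusted p = 0.023). The call was lost without any one of the 3 xct-1 libraries or xct-2 replicate 1 or 2, with adjusted p up to 0.284 over 13 alternatives. N038 of the MIR834 locus was higher in each xct-2 library than in each xct-1 library and did not pass (1.30, SE 0.40, adjusted p = 0.544). J031 of PSD3, a phosphatidylserine decarboxylase, with AT4G25980 was at 95.8, 97.2 and 95.6% in xct-2 and 100, 99.3 and 100% in xct-1 (adjusted p = 0.532). Its mean in Col-0 was 96.4%.

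In the XCT::XCT line most of the junctions named above stood near their Col-0 values. Against xct-2, 25 junctions in 16 loci were called, 14 used more and 11 less, which is 2.22% against 2.58% over all (1.5% more, 1.08% less). Of the 9 unannotated junctions among them, 1 was used more and 8 less. Those absent from Col-0 reached the read minimum through other genotypes such as xct-2, which bears on this direction. Against Col-0 the line had 1 call, 0.089% against 0.0058% over all. The comparisons of xct-2 with Col-0 and with this line share the xct-2 libraries, so their values are given side by side.

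The absent junctions were nearly absent again. N059 of DCL2 stood at 0, 0.763 and 0% in XCT::XCT, N051 of OVA2 at 0, 0.115 and 0%, and N062 of BON1 at 0 in each library. All lay below every xct-2 library (adjusted p = 7.0e-06, 4.0e-06 and 0.00015 against xct-2). N038 of the MIR834 locus stood at 2.20, 1.64 and 1.60% (log2 odds ratio -4.12, SE 0.48, adjusted p = 3.3e-06). J014 of ETR1 stood at 91.7, 90.2 and 82.6% (2.99, SE 0.50, adjusted p = 0.00036), and J042 of DCL2 at 51.9, 71.0 and 62.4% (2.16, SE 0.58, adjusted p = 0.044). J011 and J012 of RPP8 had means of 38.4% ± 1.04 and 58.0% ± 2.24, beside 38.8% ± 6.38 and 57.8% ± 5.54 in Col-0.

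J047 of SECA2 was the exception among them. It stood at 9.30, 7.72 and 5.04% in XCT::XCT (7.35% ± 2.16), below each xct-2 library (-2.69, SE 0.37, adjusted p = 4.9e-05) and above Col-0, where it was at 0. Against Col-0 it was at least 11.0-fold higher (adjusted p = 0.0078). That call was lost without Col-0 replicate 3 and when only the 6 libraries were fitted, with adjusted p up to 0.891. In prl1-2 the junction stood at 0.787, 1.68 and 0.538%.

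A junction of XPL1 with AT3G17998, J018, was used by all reads in the 3 XCT::XCT libraries. It stood at 95.6, 98.7 and 90% in Col-0 and 90, 89.8 and 82.6% in xct-2 (adjusted p = 0.0026 against xct-2). Against Col-0 it did not pass (adjusted p = 1), nor did J014 of GSTF8, a glutathione transferase, with AT2G47720. The latter stood at 75.7, 66.7 and 85.1% in XCT::XCT and 91.7, 98.5 and 90.9% in Col-0, without overlap.

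In the XCT::SpXAP5 line no junction of a joined locus passed against xct-1 with edgeR, where 0% of all junctions tested passed either, and 71 of the 1124 had an unadjusted p under 0.05 (6.32%, against 4.49% over all junctions tested). DESeq2 called 0. At J047, N059 and J011 the values stood nearer to those of xct-1 than to those of Col-0. J047 of SECA2 was at 28.9, 28.1 and 25%, N059 of DCL2 at 23.7, 30.2 and 31.4%, and J011 of RPP8 at 56.2, 61.1 and 60.3%. For these junctions the libraries of the line overlapped with those of xct-1 and not with those of Col-0. The nearest to a call were J031 of PSD3, at 94.2, 97.1 and 96.7% against 100, 99.3 and 100%, J038 of OVA2, at a mean of 99.8% against 98.0%, and J018 of OASB, at 96.5% against 100% (adjusted p = 0.976 for each). In Col-0 the means of J031, J038 and J018 were 96.4, 98.4 and 97.5%. At J031 and J018 each xct-1 library lay above those of Col-0.

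In prl1-2 the changed junctions were mostly annotated ones that were used less. Of 1124 junctions, 64 in 30 loci were called, 62 used less and 2 more, which is 5.69% against 9.45% over all junctions tested, where 9.27% were used less and 0.174% more. The median log2 odds ratio was -0.33 at joined loci and -0.79 over all. Among the 62, median usage was 89.0% in prl1-2 and 98.2% in Col-0, and the differences ran from -31.8 to -0.688 percentage points. At joined loci 67.1% of the tested junctions had a negative ratio. The same share over all junctions is not given, so this value has no background here. The junctions of a locus share its reads and are not independent.

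The calls were unequally spread over the classes of loci. At loci with an identifier absent from RefSeq, 46 of 244 junctions were called (18.9%), in 16 of 44 loci. At loci of protein-coding genes, 14 of 782 were called (1.79%), in 10 of 79 loci, and at loci with another RefSeq type 4 of 98 (4.08%), in 4 of 15. These classes also differed in depth, with medians of 737.5, 483 and 208 reads per locus. The 30 loci with a call had a median of 1648.5 reads and the 108 tested loci without one 364.5, and the part of depth in this difference was not tested.

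The largest fall was in the locus of 4 identifiers that begins with AT5G09460. J005 stood at 97.4, 98.4 and 98.7% in Col-0 and 64.8, 68.1 and 66.0% in prl1-2. The means of the other 4 genotypes lay between 96.8 and 97.9%, so the prl1-2 libraries stood alone, with a log2 odds ratio of -4.69 (SE 0.42, adjusted p = 4.4e-06). J007 of this locus stood at 93.5, 93.8 and 91.6% in Col-0 and 75.5, 78.2 and 77.2% in prl1-2 (-1.99, SE 0.35, adjusted p = 0.0018). The locus had 3 tested junctions and all were called. J005 and J007 were called in each of 13 alternatives.

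The other locus of 4 identifiers holds SAC51, a bHLH factor of stem growth whose translation is controlled by reading frames upstream of it. Its J007 stood at 88.8, 87.7 and 91.5% in Col-0 and 72.9, 77.9 and 76.5% in prl1-2, without overlap (-1.41, SE 0.43, adjusted p = 0.042). SAMDC, whose translation is also controlled from upstream, shares its locus with AT3G02468. Its J015 stood at 96.4, 95.9 and 95.2% in Col-0 and 80.4, 90.1 and 84.3% in prl1-2 (-1.99, SE 0.38, adjusted p = 0.0033). At the same locus bin E006 stood at 0.241, 0.629 and 0% in Col-0 and 5.48, 2.44 and 2.88% in prl1-2, above Col-0 in each library without a call (3.26, SE 0.73, adjusted p = 0.122).

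AT5G15948 with AT5G15950 had the same pattern. Its junction J010 stood at a mean of 75.8% in prl1-2 and 98.0% in Col-0 and was called. Bin E005 of the locus stood at 28, 14.6 and 20.7% in prl1-2 and 1.67, 0 and 0% in Col-0 (adjusted p = 0.150). Bin E003 was at 8, 13 and 13.8% in prl1-2 and at 0 in Col-0, at least 4.46-fold higher (adjusted p = 0.190). Both bins were above Col-0 in every prl1-2 library without passing.

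Further loci with called junctions in prl1-2, all of them used less, are given by gene. LHW, a bHLH factor of root vascular patterning, shares a locus with AT2G27228, where 5 of 9 junctions were called. J021 there stood at 100, 100 and 99.6% in Col-0 and 92.9, 88.6 and 92.9% in prl1-2 (-5.44, SE 0.79, adjusted p = 0.00032). At the locus of BIN2, a kinase that represses brassinosteroid signalling, 2 of 5 tested junctions were called, both used less. Single junctions were called at the loci of CRF10, of the cytokinin response factor family (76.5% against 100% in Col-0), WNK5, a kinase, and MOS6, an importin alpha of nuclear import (80.8% against 100%).

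The remaining junctions with the smallest p lay in loci without a gene symbol, but for PSD3. J005 of AT3G22968 with AT3G22970 stood at 100, 100 and 98.5% in Col-0 and 67.4, 84.4 and 70.4% in prl1-2 (-6.23, SE 0.91, adjusted p = 0.00035). At AT5G45428 with AT5G45430 8 of 13 junctions were called, of which J024 was at 98.6, 98.6 and 98.2% in Col-0 and 90.7, 87.6 and 92.1% in prl1-2 (-2.76, SE 0.44, adjusted p = 0.00077). J029 and J026 of that locus had means of 90.3% ± 0.828 and 93.6% ± 0.464 in prl1-2 and 97.6% ± 0.376 and 98.4% ± 0.441 in Col-0. None of these overlapped between the groups. J044 of PSD3 stood at 100% in each Col-0 library and 87.0, 94.6 and 87.3% in prl1-2 (adjusted p = 0.0022).

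The locus of AT4G19110 and AT4G19112 had 8 of 17 junctions called in prl1-2. Of these, J032 was at 98.1, 97.9 and 98.5% in Col-0 and 92.9, 93.6 and 93.4% in prl1-2 (-1.96, SE 0.34, adjusted p = 0.0017). The consecutively numbered junctions J023, J024 and J025, chosen after their values were seen, differed in direction. J024 fell from 61.0, 59.7 and 62% to 41.7, 47.5 and 49.5% (-0.86, SE 0.26, adjusted p = 0.042), and J025 rose from 28.1, 29.4 and 27.8% to 45.7, 42.7 and 39.3% (0.90, SE 0.27, adjusted p = 0.038). J023 was at a mean of 9.21% in Col-0 and 6.04% in prl1-2. In xct-2 it was J023 that rose, to 17.1, 18.4 and 16.8% (1.05, SE 0.28, adjusted p = 0.041), while J025 was at 23.0% ± 3.03.

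The unannotated junction N052 of OVA2 was the other one used more in prl1-2. Its mean was 2.80% against 0.809% in Col-0 (1.73, SE 0.40, adjusted p = 0.010). N051 of the same locus, which rose in both XCT mutants, was at 0 in each prl1-2 library, and so were N059 of DCL2 and N062 of BON1. With the locus count as an offset in place of the reads off the junction, 5 of the 64 calls were made, J005 and J007 of the AT5G09460 locus, J024 and J025 of AT4G19110, and N052 of OVA2. The number of calls was 21 without Col-0 replicate 1, 27 without prl1-2 replicate 3 and 32 without prl1-2 replicate 1.

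**Figure D5:**
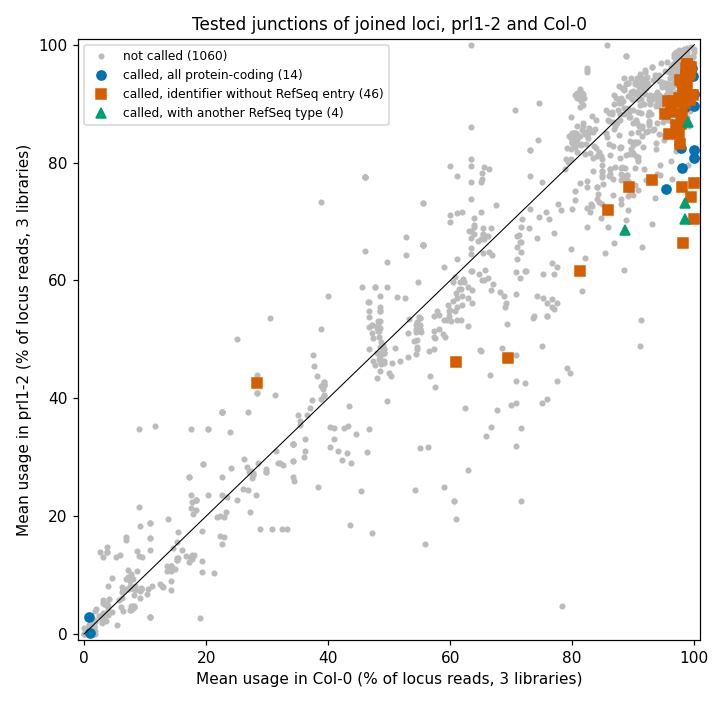
Each point is 1 of the 1124 tested junctions of joined loci, with mean usage in Col-0 on the horizontal axis and in prl1-2 on the vertical axis, each in percent of locus reads over 3 libraries. Coloured shapes mark the 64 called junctions by class, of which 46 lie in loci with an identifier absent from RefSeq, and 62 of the 64 lie below the diagonal that marks equal usage.

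The test of usage was also run on exon bins, 1231 bins in 128 joined loci. No bin was called with edgeR in the comparisons with Col-0, where the share over all 32287 bins was 0.0434% for xct-2, 0% for xct-1, 0.0898% for prl1-2 and 0% for XCT::XCT. None was called in XCT::XCT against xct-2 (0.0496% over all) or in XCT::SpXAP5 against xct-1 (0%). At an unadjusted p under 0.05 there were 25, 15, 18, 41, 46 and 77 bins in that order. These are 2.03, 1.22, 1.46, 3.33, 3.74 and 6.26% of the bins of joined loci, against 3.69, 2.34, 4.82, 2.07, 3.95 and 4.71% of all bins tested. DESeq2 called 1, 0, 0, 0, 1 and 0 at an adjusted p under 0.05. The nearest was E003 of RPP8, at 25.7, 25.1 and 31.9% in xct-2 and 58.2, 59.3 and 62.2% in XCT::XCT (1.98, SE 0.41, adjusted p = 0.0942). E002 of ATRZ-1A, a glycine-rich RNA-binding protein, with AT3G26430 stood at 13.6, 12.7 and 23.8% in xct-2 and 38.6, 50 and 31.6% in XCT::XCT (1.85, SE 0.53, adjusted p = 0.611). At the 13 loci with a called junction in xct-2, 237 bins were tested and 4 had an unadjusted p under 0.05 (1.69%, against 3.69% of all bins tested).

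The bins with the smallest p in XCT::SpXAP5 and in XCT::XCT against Col-0 are given as values. Bin E001 of MT1A, a metallothionein, with AT1G07590 stood at 18.2, 7.89 and 25% of locus reads in xct-1 against 42.9, 72.7 and 100% in XCT::SpXAP5, without overlap (adjusted p = 0.888). E010 of AO1, an amine oxidase, with AT4G14930 stood at 50, 58.3 and 60.0% and 100, 87.5 and 83.3% (adjusted p = 0.888). Between XCT::XCT and Col-0 the smallest p belonged to E001 of AT2G32235 with AT2G32240, at 0.218, 0.453 and 0.281% against 0, 0 and 0.0618% (adjusted p = 1).

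Summed over joined loci, the libraries showed no difference by genotype that the design could resolve. Unannotated junctions took 0.357 to 0.661% of the junction reads at joined loci and 0.795 to 1.37% at single-gene loci. The share at joined loci was 0.571% in xct-2 and 0.442% in Col-0 (two-sided exact permutation test, p = 0.2, n = 3 and 3). Junction reads per read at joined loci ran from 7.01 to 12.3. With 3 against 3 libraries the exact test cannot go below 0.1, and none of these shares reached a p below 0.2 in the 6 comparisons.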

How the data were processed

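The deposited tables, 1 per library, hold raw whole-number counts of reads per locus, exon bin, annotated junction and unannotated junction, as their values show. The submitters' processing notes name TAIR10 and minimap2 2.17 without a role, and the sources used here do not give the counting program or its settings. From the authors' deposited comparison table of single-gene loci only positions and strands were used, to count overlaps. Gene names and types are those of RefSeq's gene table for TAIR10.1, and no genome sequence was used. The members and lists were chosen with earlier results of these data known.

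Locus counts were tested with edgeR 4.0.16 in R 4.3.3 by the quasi-likelihood test after TMM scaling and the default filter. Usage was tested with edgeR on 2 counts per library, the reads on a junction or bin and the other reads of its locus, fitted over all 18 libraries with library terms and 1 usage term for each genotype. At least 20 reads were required on each side. A junction exceeded its locus count in 2.01% of the values, or 0.559% of those tested, and the other reads were then set to 0. Standard errors are the log2 change divided by the root of the F statistic. P-values were adjusted by Benjamini-Hochberg over all loci, junctions or bins. The test was checked on simulated data with independent libraries and a fixed spread. That check does not cover deviations shared between libraries or a wider spread. Alternatives were DESeq2 1.42.0, other read minimums, an offset, a covariate, a replicate block, fits of the 6 libraries compared and leaving out each library.

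Named were the 10 loci with most reads, up to 10 called junctions with the smallest adjusted p per comparison, the 3 nearest features where fewer than 3 were called, and the 5 loci of most genes, ties being ordered by reads. Further items were chosen after their values were seen. For the 2 libraries of 1 genotype that were most alike, the chi-square per degree of freedom was 1.54, so each library was kept as a replicate. Depth bounds precision, a count of 0 allows 3 reads (95% level), and such limits cover counting error only.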

Additional observations from a re-analysis of the deposited data

Results flagged for a closer look

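The effect of the XCT mutations differed between alleles at J014 of the ETR1 locus (AT1G66340 with AT1G66345), by the test of xct-2 against xct-1 itself. The log2 odds ratio was -2.69 (SE 0.49, edgeR adjusted p = 0.023), and each of the 3 xct-2 libraries lay below each of the 3 xct-1 libraries. The call was made in only 7 of 13 alternatives. It was lost with the 6 libraries alone, without any 1 of the xct-1 libraries and without xct-2 replicate 1 or 2 (edgeR adjusted p up to 0.284).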

How the results depend on the processing

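Directions held in every alternative run for the named junctions. The counts below are those of joined loci. Shares over all junctions or bins under the other settings are not given. The counts therefore show how calls depend on the setting, and no trait of joined loci is read from them. Against 17 junctions called in xct-2, 10 were called with the 6 libraries alone and 36 with junction reads per gene read as a covariate, and 13 to 17 with 1 library left out. In xct-1, 3 were called with 6 libraries against 9, and 5 to 6 with 1 library left out. In prl1-2, against 64, 41 were called with 6 libraries, 31 with DESeq2, 118 with the covariate, 5 with the offset by locus count and 21 to 58 with 1 library left out; the cause was not tested. XCT::XCT against Col-0 gave 0 with 6 libraries against 1, and 0 to 1 with 1 library left out. XCT::XCT against xct-2 gave 16 to 20 against 25 with 1 library left out, 16 without XCT::XCT replicate 2 or replicate 3. For xct-2 against xct-1, 0 with 6 libraries, 2 with the offset and 0 to 1 with 1 library left out stood against 1. Exon bins had no call in the model reported. In xct-2 1 was called with DESeq2, 1 with at least 50 reads, 3 with the covariate and 3 with the offset. In xct-1 the covariate and the offset gave 1 each, in prl1-2 34 and 3, and in XCT::XCT against xct-2 2 and 4, where DESeq2 and 50 reads gave 1 each. Locus counts with the covariate, chosen after seeing the data, gave 1 call in xct-2, 8 in prl1-2 and 5 in XCT::XCT against xct-2. Replicate numbers were not taken to pair the libraries, since not every same-numbered pair had deviations correlated above 0.1 (24 of 45, median r 0.21). Among different-numbered pairs it was 38 of 90, with a median r of -0.0892. The same libraries enter both kinds of pair, so these values are not independent and their contrast is no separate evidence. Not every library correlated best with its own number. Replicate 2 of Col-0 correlated at 0.837, 0.802 and 0.708 with replicate 2 of xct-1, xct-2 and prl1-2. With replicate 2 of XCT::XCT and XCT::SpXAP5 it stood at -0.638 and -0.217. Replicate 3 of Col-0 stood at 0.829 and 0.742 with that of xct-1 and xct-2, and replicate 1 at -0.231 and -0.344. Some libraries of Col-0 and the mutants thus shared deviations, and the source was not tested. With the replicate block, 19 junctions were called in xct-2, 7 in xct-1, 64 in prl1-2, 25 in XCT::XCT against xct-2, and 1 each in the other comparisons with a call, with 0 bins and 0 locus counts. The difference in median best bin, joined minus single-gene, was -0.253 points, and -0.232 with at least 50 reads, -0.102 with at least 200 and -0.240 with at least 5 bins. Few reads limit loci under 100 reads, and rare junctions there were not detectable at this depth.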
